A study of Drosophila melanogaster with 2 samples.

Results

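The genes described here are 9 that set up the early nervous system of the fly. The proneural genes are achaete (ac), scute (sc) and lethal of scute (l(1)sc), and asense (ase) is the neural precursor gene of the same complex. The neuroblast genes are worniu (wor) and escargot (esg). The columnar genes are ventral nervous system defective (vnd), intermediate neuroblasts defective (ind) and Drop (Dr, also called msh). All 9 were chosen by name for their function, with earlier results of these data known, and are 9 of the 13968 protein-coding genes of the annotation. Each was read for summits, the single base at which a peak is highest, between 5 kb before and 5 kb past the span, a window called the territory below. The data are peak lists from chromatin immunoprecipitation and sequencing (ChIP-seq) of the zinc finger transcription factor Odd skipped (Odd). There was 1 group, with 2 biological replicates: a transgenic fly line that carries odd with eGFP fused to its C-terminal end, whole embryos of both sexes aged 0 to 16 h, and an antibody against GFP. Chromatin was sheared by sonication. The antibody is directed at the tag, so untagged Odd is not read, and the labels do not give the level of the fusion protein. In whole embryos, binding in few cells and weak binding in many cells cannot be told apart, and no neural cells were isolated. No library of another genotype, tissue or time was analysed here, so no value below is a difference between conditions.

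In the ventral ectoderm of the embryo, proneural genes of the basic helix-loop-helix (bHLH) class give groups of cells the competence to become neural precursors, and Notch signalling then leaves a single cell of each group as a neuroblast. The columnar homeobox genes divide the same ectoderm along the dorsoventral axis, with vnd in the ventral, ind in the intermediate and Dr in the dorsal column. Zinc finger genes of the Snail family, among them wor and esg, act in the neuroblasts themselves.

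The authors deposited a relaxed list of 30000 peaks for each replicate and for the pooled replicates. By their label these lists hold peaks and background, so a summit found only there is no call of binding. They also deposited a list of 4291 peaks that passed the irreproducible discovery rate (IDR) procedure, which compares how peaks rank between replicates. Every peak has a signal value that is the authors' own, and a peak's rank in its list, with 1 as the strongest, is the measure used here. The IDR list was the 4291 strongest peaks of the pooled list, with signals of 144 to 2892, and the pooled list went down to 34.3. Of the IDR summits, 3988 (92.9%) had a summit of both replicates within 100 bp. A place in that list thus does not mean that a peak ranked alike in both replicates. Signals ran from 21.4 to 1528 in replicate 1 and from 18.9 to 1365 in replicate 2. Reads were not analysed, so the depth of the libraries is unknown, and a summit that is missing from a list of fixed length was not necessarily without signal.

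Most of these genes had relaxed summits nearby, and nearly all of them lacked strong ones. An IDR summit lay in the territory of 1 of the 9 genes (11.1%, exact 95% Clopper-Pearson interval 0.281 to 48.2%), against 39.7% of all protein-coding genes (38.9 to 40.5%). The intervals cover the counting of genes only and treat each gene as an independent draw. The 9 genes were chosen by name, and ac, sc, l(1)sc and ase shared 1 stretch between IDR summits, as did esg and wor. The share of all genes is a full count of the annotation. The gene was Dr. Pooled relaxed summits lay in 8 of the 9 territories, against 72.1% of all protein-coding genes, and ind was the gene without one. A pooled summit lay within 500 bp of the gene's own transcription start site (TSS) at 5 of the 9 genes, against 38.2% of all genes. These were ac, sc, esg, vnd and Dr.

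The same was read in each replicate alone, taking as many of its strongest peaks as the IDR list holds. In replicate 1 the territories of 2 of the 9 genes, Dr and vnd, held such a summit, against 40.3% of all genes. In replicate 2 that of Dr alone did, against 41.4% of all genes. With 9 genes the interval on the IDR share is wide, 0.281 to 48.2%, and includes the 39.7% of all genes. As the 9 genes were not independent draws, it is no test of a difference between the shares.

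The median rank of the strongest pooled summit was 11997 over the 9 genes, with ind counted last, against 7083 over all protein-coding genes. It depended on the window: with 1 kb to each side the medians were 28294 for the 9 genes and 27446.5 for all genes, and with 10 kb they were 6869 for the 9 genes and 3607 for all genes. The median span was 2273 bp for the 9 genes, against 2164.5 bp for all genes. The distance from the gene span to the nearest IDR summit had a median of 31.3 kb for the 9 genes, against 8.545 kb for all genes. With 5 kb the order from strongest to weakest was Dr (rank 3856), vnd (6116), ase (7590), ac (10626), esg (11997), l(1)sc (16647), wor (21421) and sc (28352). With 10 kb esg, at rank 4991, came before vnd, and ac (6869) and wor (7430) came before ase. All 9 genes, ind included, then had a pooled summit. Of these summits, those at ranks 6869 and 7430 lay nearest to the protein-coding TSSs of y and CG4161. The order with 5 kb was not the same in the replicates: ac came before ase in replicate 1 and after it in replicate 2, and l(1)sc came last among the 9 in replicate 1 but before ac in replicate 2. Dr and vnd were the first and the next in both replicates. Since 37.7% of all protein-coding genes had a summit at least as strong as that of Dr, and 47.2% one at least as strong as that of vnd, even these were near the middle of the genome.

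**Figure D1:**
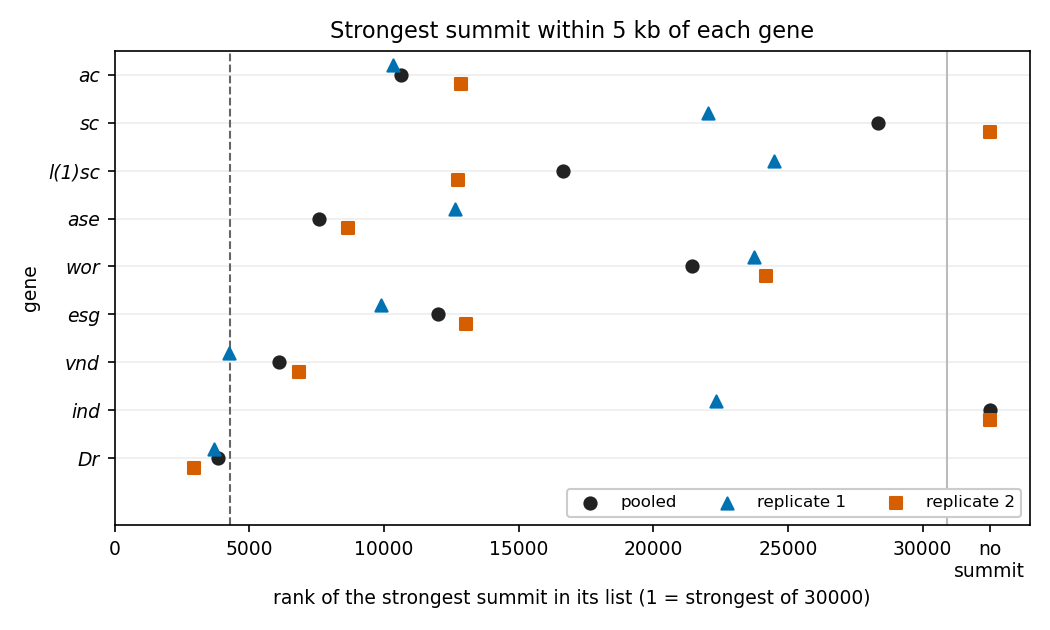
Rank of the strongest summit in the territory of each of the 9 genes (horizontal axis, 1 is the strongest of 30000) in the pooled list (circles), replicate 1 (triangles) and replicate 2 (squares), with the dashed line at rank 4291, where the IDR list ends. All 3 points of Dr lie left of the line, the replicate 1 point of vnd lies just left of it at 4241, and every other point lies to its right.

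**Figure D2:**
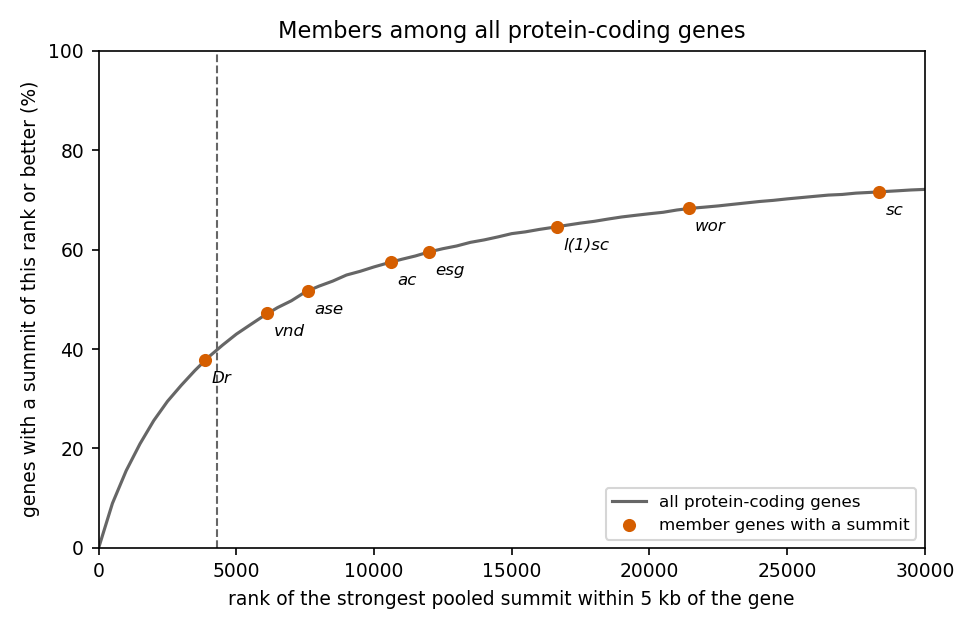
Share of protein-coding genes (vertical axis, percent) whose strongest pooled summit has a given rank or a better one (horizontal axis), with the genes of the set that have a summit as points and the dashed line at rank 4291. The points start at 37.7% for Dr and end at 71.6% for sc, and ind has no point.

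In the pooled list the columnar genes spanned the whole range, from Dr, the strongest of the 9 in all 3 lists, to ind, which had no summit. In replicate 2 both ind and sc had none. In replicate 1 ind (rank 22342) came before wor (23735) and l(1)sc (24496). Dr encodes a homeodomain protein of the dorsal column that also acts in muscle progenitors. Its territory held 13 pooled summits, 6 upstream, 3 in the gene and 4 downstream, and no other protein-coding gene has a TSS nearer to any of them. The strongest lay 1966 bp past the end of the gene, and 10824 bp from its start, with a pooled signal of 155 at rank 3856. It is the single IDR summit of the set. In replicate 1 it had a signal of 85.8 at rank 3675, and in replicate 2 a signal of 66.4 at rank 5372, so it was within the strongest 4291 of the pooled list and of replicate 1 but not of replicate 2.

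The next summit of Dr lay in an intron, 3331 bp from the gene start, with a pooled signal of 143.6 at rank 4330, just past the end of the IDR list. The replicates ranked it unequally, with a signal of 55.6 at rank 7541 in replicate 1 and of 94.8 at rank 2931 in replicate 2. The promoter summit, 61 bp upstream of the start, had a pooled signal of 125 at rank 5364, with 66.4 at rank 5677 in replicate 1 and 51.5 at rank 8021 in replicate 2. The order of the 3 summits thus differed between replicates, with the downstream one first in replicate 1 and the intronic one first in replicate 2. The other 10 summits of Dr ranked between 12373 and 28558. Of the 13, 5 had a summit of both replicates within 100 bp, 1 of replicate 1 only, 5 of replicate 2 only and 2 of neither. The sites upstream of the promoter at 2033, 2281 and 3191 bp were all matched in replicate 2 alone, at ranks 12897, 9220 and 9804.

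The sequences at the 3 strongest summits of Dr are shown because they hold the single IDR summit of the set, the site next to the limit of the IDR list, and the promoter. Each is the 201 bp centred on the summit, on the plus strand of dm6, which is also the strand of the gene. Capitals mark any of 6 short words searched on both strands: ACAGTAGC, the word of the Odd family; CAGCTG and CAGGTG, E-boxes bound by proneural bHLH proteins, of which CAGGTG is also bound by Snail family proteins; CAGGTAG, the word of the early activator Zelda; CAAGTG, the word of Vnd and other NK-2 homeodomain proteins; and GAGAG, the word of GAGA factor. None of the words contains another, and runs of GAGAG overlap themselves.
Dr, 1966 bp past the gene end, chr3R:29567110-29567310: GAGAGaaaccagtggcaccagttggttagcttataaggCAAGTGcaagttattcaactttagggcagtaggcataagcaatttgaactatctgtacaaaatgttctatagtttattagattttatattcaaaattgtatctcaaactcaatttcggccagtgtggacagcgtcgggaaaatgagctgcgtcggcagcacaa
Dr, intron, chr3R:29559617-29559817: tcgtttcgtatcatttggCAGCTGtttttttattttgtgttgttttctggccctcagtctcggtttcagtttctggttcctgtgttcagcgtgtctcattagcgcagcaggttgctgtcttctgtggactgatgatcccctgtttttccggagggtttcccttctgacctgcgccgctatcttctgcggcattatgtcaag
Dr, promoter, chr3R:29556225-29556425: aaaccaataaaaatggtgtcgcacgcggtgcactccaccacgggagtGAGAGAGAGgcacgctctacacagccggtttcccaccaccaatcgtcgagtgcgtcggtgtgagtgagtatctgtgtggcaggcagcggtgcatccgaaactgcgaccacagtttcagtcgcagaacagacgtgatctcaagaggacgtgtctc
The downstream window holds a GAGAG at its left edge and a CAAGTG, the intronic one a CAGCTG and the promoter a run of GAGAG. None of the 3 holds ACAGTAGC.

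The gene vnd encodes the NK-2 homeodomain protein of the ventral column, which is needed for proneural expression there. Its territory held 6 pooled summits, none of them in the IDR list and none inside its span of 16031 bp. The promoter summit, 56 bp upstream of the gene start, had a pooled signal of 114.7 at rank 6116. It had a signal of 79.0 at rank 4241 in replicate 1, just inside that replicate's strongest 4291, and of 39.3 at rank 12036 in replicate 2. The summit 970 bp upstream had a pooled signal of 112 at rank 6330, with 47.0 at rank 9850 in replicate 1 and 56.9 at rank 6831 in replicate 2. The replicates placed these 2 sites in opposite order. The other 4 lay 269 to 3664 bp past the end of vnd, at ranks 9041 to 23593, all within the gene spdi, whose span overlaps that of vnd. Of the 6, 5 were matched in both replicates and 1 in replicate 2 only, the highest number matched in both for any of the 9 genes together with Dr.

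The promoter window of vnd, on its own strand, is the strongest site of the gene and holds 1 of the words, GAGAG read on the other strand.
vnd, promoter, chrX:581965-582165: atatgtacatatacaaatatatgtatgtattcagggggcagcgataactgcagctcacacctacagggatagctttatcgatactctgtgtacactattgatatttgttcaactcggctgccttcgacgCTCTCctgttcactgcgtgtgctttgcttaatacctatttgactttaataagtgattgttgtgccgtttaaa

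The third columnar gene, ind, encodes the homeodomain protein of the intermediate column. No pooled summit lay in its territory, and none of replicate 2. Replicate 1 had 2, a signal of 26.9 at rank 22342, which lay 4918 bp past the gene end and nearest to the TSS of Sytbeta, and a signal of 22.5 at rank 28287, which lay 1092 bp upstream of the gene. The nearest IDR summit was 28.644 kb away, at rank 1287, with Reck as the gene of the nearest TSS.

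The 4 genes of the achaete-scute complex lie in 1 stretch of the X chromosome. They encode related bHLH proteins that bind DNA as partners of Daughterless. None of their territories held an IDR summit, and the lists held 4 pooled summits for ac, 1 for sc, 3 for l(1)sc and 1 for ase. All 9 lie inside the span of CG32816, a gene on the opposite strand that runs past ac, sc, l(1)sc and ase, so they are intronic to CG32816 unless they lie at a promoter.

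The strongest was that of ase, the member of the complex that is expressed in the neural precursors themselves. It lay 2661 bp upstream of the gene, with a pooled signal of 99.1 at rank 7590. It was matched in both replicates, with a signal of 40.2 at rank 12635 in replicate 1 and of 49.1 at rank 8652 in replicate 2. No summit of the pooled list lay closer to ase.

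For ac the pooled list held 2 overlapping promoter peaks, each 464 bp wide, and whether they are separate sites was not tested. Their summits lay 199 bp apart, 224 and 25 bp upstream of the gene start. The farther one had a pooled signal of 78.7 at rank 10626, and 45.6 at rank 10340 in replicate 1, with no summit of replicate 2 within 100 bp. The nearer one had a pooled signal of 69.1 at rank 12697, with 30.03 at rank 19203 in replicate 1 and 37.4 at rank 12868 in replicate 2. Replicate 1 therefore had a summit at both positions, the farther one the stronger, and replicate 2 at the nearer one alone. A weaker summit 2876 bp upstream, at rank 21960 with a pooled signal of 45.0, was matched in both replicates at ranks 27534 and 25493, and one 947 bp upstream, at rank 28619, in neither.

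The sequences of ase and ac are shown because they include the strongest summits in the territories of these 4 genes and, of the 9 windows searched there, those with an E-box, Zelda or Odd word. They are on the plus strand, which is the strand of both genes, with capitals as above.
ase, 2661 bp upstream, chrX:457986-458186: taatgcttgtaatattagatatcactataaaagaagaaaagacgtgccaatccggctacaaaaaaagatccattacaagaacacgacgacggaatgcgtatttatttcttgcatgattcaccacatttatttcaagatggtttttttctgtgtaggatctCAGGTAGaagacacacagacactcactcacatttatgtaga
ac, 224 bp upstream, chrX:369707-369907: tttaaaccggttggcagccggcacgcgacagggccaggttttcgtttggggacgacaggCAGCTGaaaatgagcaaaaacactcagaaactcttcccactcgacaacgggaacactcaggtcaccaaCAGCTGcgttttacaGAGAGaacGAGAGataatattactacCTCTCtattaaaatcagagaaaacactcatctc
ac, 25 bp upstream, chrX:369906-370106: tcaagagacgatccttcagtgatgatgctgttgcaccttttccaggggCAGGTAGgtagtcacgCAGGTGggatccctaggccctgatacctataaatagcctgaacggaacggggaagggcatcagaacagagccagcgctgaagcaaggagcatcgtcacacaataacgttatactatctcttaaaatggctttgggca
ac, 2876 bp upstream, chrX:367055-367255: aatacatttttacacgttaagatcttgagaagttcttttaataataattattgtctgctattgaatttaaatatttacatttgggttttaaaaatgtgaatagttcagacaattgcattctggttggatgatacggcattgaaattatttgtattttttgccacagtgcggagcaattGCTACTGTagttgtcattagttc
The site of ase holds a CAGGTAG. The promoter window of ac at 224 bp holds 2 CAGCTG words and 3 of GAGAG, and that at 25 bp a CAGGTAG and a CAGGTG. The window at 2876 bp is the only one of the 37 pooled summits of the set with ACAGTAGC, there read on the minus strand.

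The gene sc, which acts with ac in sense organ precursors and neuroblasts, had the weakest best summit of the 8 genes with one. It lay 133 bp into the gene, with a pooled signal of 36.1 at rank 28352, and replicate 1 had a signal of 27.2 at rank 22039 there. Replicate 2 had no summit in the territory of sc. The 3 pooled summits of l(1)sc, the proneural gene expressed most widely in the embryonic neuroectoderm, lay 2442 bp upstream and 1587 and 3689 bp past the gene end. Their ranks were 25556, 25307 and 16647. Each was matched in a single replicate, the upstream one in replicate 1 and both downstream ones in replicate 2. The strongest of them had a pooled signal of 56.0, and a signal of 37.7 at rank 12740 in replicate 2.

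Neither Snail family gene had an IDR summit. The gene esg, which keeps precursor cells of several tissues from differentiating, had 7 pooled summits, all outside its span. The strongest lay 1280 bp past the gene end, with a pooled signal of 72.04 at rank 11997. It had a signal of 46.9 at rank 9875 in replicate 1 and of 25.9 at rank 20948 in replicate 2. The promoter summit, 254 bp upstream, had a pooled signal of 59.4 at rank 15469 and was matched in replicate 1 alone, with 36.0 at rank 14824, while replicate 2 had a promoter summit of its own 561 bp away, 307 bp into the gene, with a signal of 37.03 at rank 13064. Of the 7, 1 was matched in both replicates, 4 in replicate 1 only and 2 in neither. Both replicates therefore had a summit within 500 bp of the start of esg, at different positions.

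The gene wor, which acts in neuroblast division and identity, had 2 pooled summits, 2698 and 549 bp upstream. They had pooled signals of 45.9 and 36.2 at ranks 21421 and 28294. Neither had a summit of a replicate within 100 bp. Each replicate had 1 summit of its own in the territory, with a signal of 25.7 at rank 23735 in replicate 1 and of 22.9 at rank 24198 in replicate 2.

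**Figure D3:**
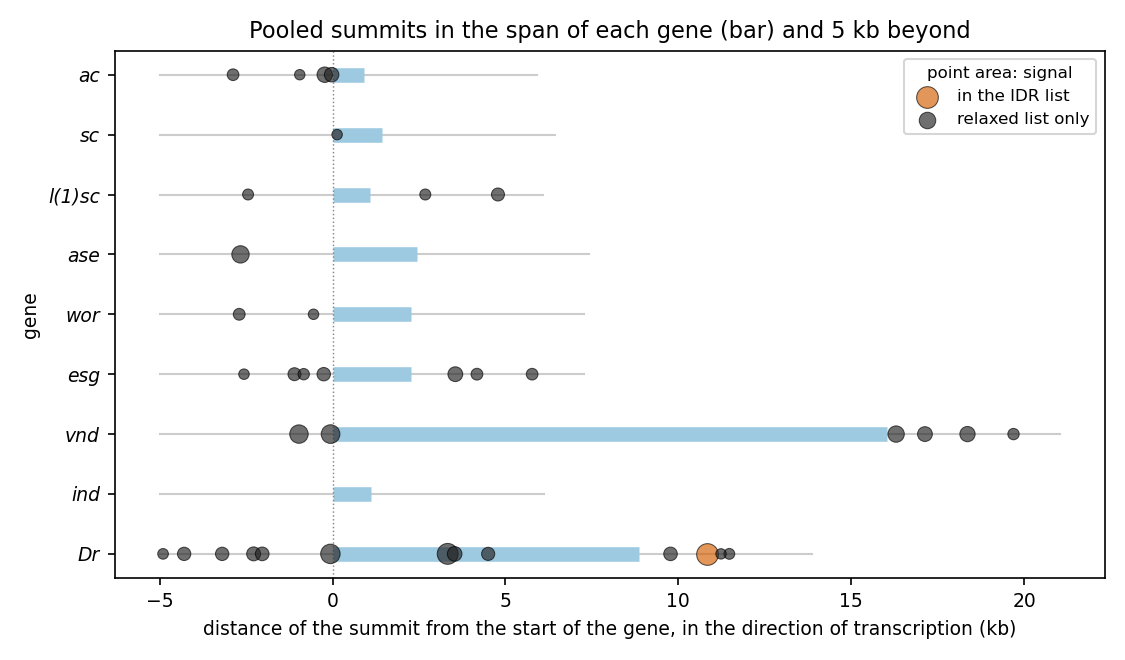
Pooled summits in the territory of each gene, placed by distance from the gene start in kb along the direction of transcription, with the gene span as a blue bar, the searched window as a grey line and the point area scaled to the signal. The 13 summits of Dr spread over the whole window with the IDR summit (orange) downstream, those of vnd lie on both sides of an empty span, and ind has none.

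The 9 territories together covered 126.455 kb and held 37 pooled summits, 36 summits of replicate 1 and 35 of replicate 2. The pooled density was 2.93 per 10 kb in the territories, against 2.24 per 10 kb on the chromosome arms. The summits were unevenly spread, and the higher density rested largely on Dr, with 13 of the 37 in a territory of 18859 bp. The gene esg had 7, vnd 6, ac 4, l(1)sc 3, wor 2, sc and ase 1 each, and ind 0. The arms are counted whole, and the density in the territories of other genes was not compared. In number, then, relaxed summits were not scarce over the 9 territories, but this does not hold for each gene. By place, 18 of the 37 were intergenic (48.6%), 13 intronic (35.1%) and 6 at promoters (16.2%), against 20.6%, 46.9% and 27.4% of all pooled summits in the same classes. The median GC content of the 201-bp windows was 42.3% in the territories, against 40.3% for all pooled and 36.8% for IDR summits.

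Fewer of the 37 were found again in the replicates than over the whole list. Summits within 100 bp in both replicates were found for 14 of the 37 (37.8%), and in neither for 7 (18.9%), against 45.1% and 9.32% of all pooled summits. Among the strongest summits of the genes, 4 of 8 were matched in both, those of ase, esg, vnd and Dr, against 77.7% of those of all protein-coding genes with a pooled summit. Rank moves with that count: the share of all pooled summits matched in both replicates was 91.6% at ranks 1 to 5000, 77.7% at 5001 to 10000, 56.6% at 10001 to 15000, 30.3% at 15001 to 20000, 11.8% at 20001 to 25000 and 2.34% at 25001 to 30000. Of the 4 strongest summits that were not matched, those of l(1)sc, wor and sc ranked past 15000 and that of ac at 10626. The part of rank in the lower count was not tested.

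Within 100 bp of the strongest summits of the 8 genes, 4 genes had at least 1 word. The share of all pooled summits with at least 1 of the 6 words is not given here, so this count has no background beside it. The gene ac had the E-box CAGCTG, ase had the Zelda word and Dr the word of Vnd. The word of GAGA factor was near those of ac, vnd and Dr. Over the 37 summits, GAGAG was near 16 (43.2%), against 25.0% of all pooled summits, and the word of Vnd, CAAGTG, near 8 (21.6%), against 13.8%. The E-box CAGCTG was near 4 (10.8%), against 8.69% of all pooled summits, and the other E-box, CAGGTG, near 3 (8.11%), against 5.85%. The Zelda word was near 2 (5.41%), against 1.23%, and the word of Odd near 1 (2.70%), against 0.58% of all pooled and 0.862% of IDR summits. Neighbouring summits of 1 gene can share bases of their windows, and these shares were not tested. The territories themselves held 2 ACAGTAGC words, 0.158 per 10 kb, against 0.196 per 10 kb on the arms. The word of ac lay 81 bp from the pooled summit at 2876 bp upstream, and that of Dr, in the 3' flank, 383 bp from the nearest pooled summit. Over the arms, 184 of 2624 such words (7.01%) lay within 100 bp of a pooled summit and 39 (1.49%) within 100 bp of an IDR summit.

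The genes of the complex were also read with the DNA between them, since regulatory elements of ac and sc are spread over it. From the start of y to the end of ase, 106.668 kb, the pooled list had 20 summits and the IDR list 0. That is 1.87 pooled summits per 10 kb, against 2.24 on all arms, and the X chromosome as a whole had 0.295 IDR summits per 10 kb. The strongest of the 20 had a pooled signal of 106 at rank 6869, and 9 were matched in both replicates. The strongest lay outside the territories of the 4 genes and was not searched for words. The distance between the IDR summits on both sides of ac, sc, l(1)sc and ase was 155.51 kb, against a median of 9.292 kb over all neighbouring IDR summits. A long stretch holds more genes than a short one, and 16.4% of all protein-coding genes lay in a stretch at least as long.

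From the start of esg through wor to the end of sna, 144.395 kb, the pooled list had 32 summits (2.22 per 10 kb) and the IDR list 1. That IDR summit, at rank 3792 with a signal of 156, lay 16.844 kb from wor and 9115 bp from the nearest TSS, that of CG4161. The stretch between IDR summits that holds both esg and wor was 177.784 kb, and 12.9% of all protein-coding genes lay in one at least as long. For vnd it was 105.987 kb (28.7% of all genes), for Dr, which lies at one end, 87.09 kb (34.2%), and for ind 84.696 kb (35.1%). The 9 genes thus lay in 5 such stretches, and stretches of at least those lengths held 12.9 to 35.1% of all genes.

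**Figure D4:**
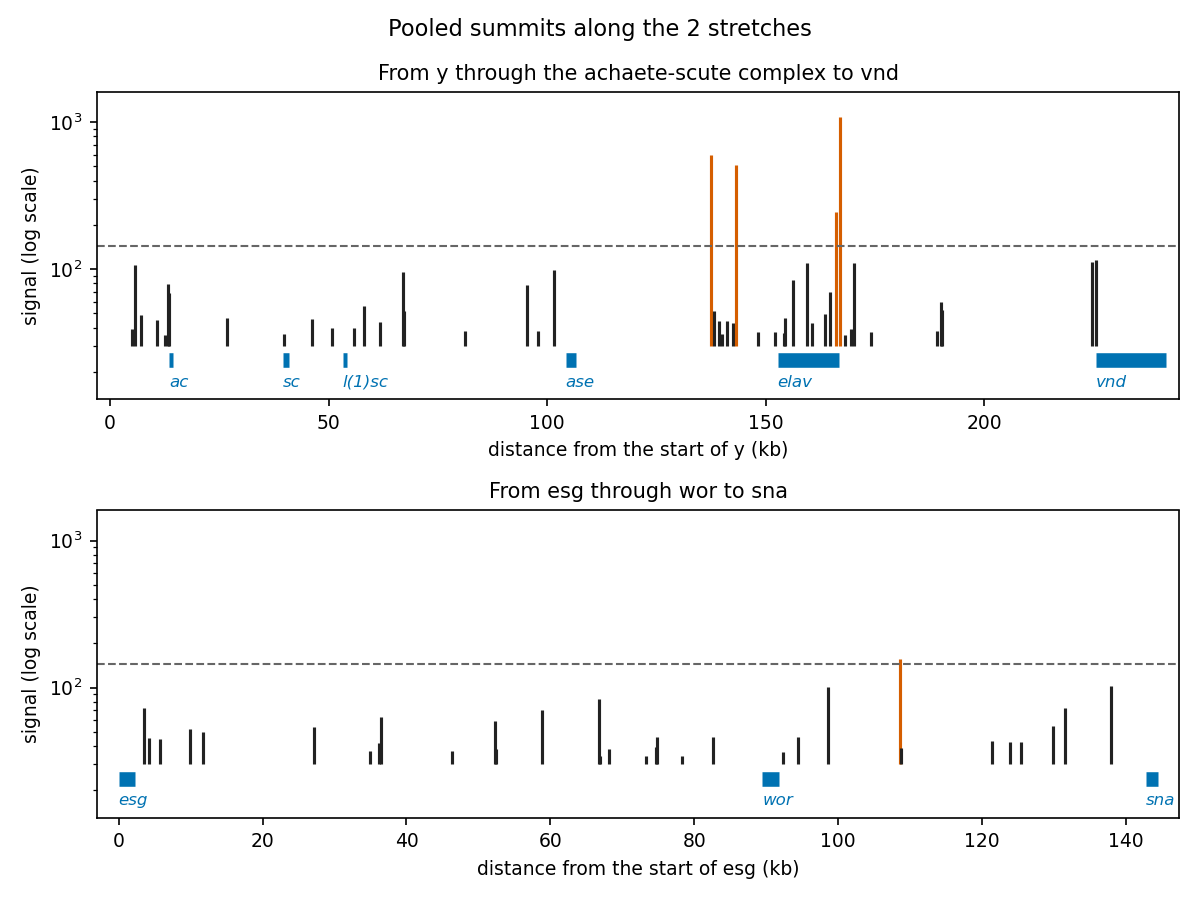
Signal of each pooled summit (vertical axis, log scale) along the DNA from y through the achaete-scute complex to vnd (upper panel) and from esg through wor to sna (lower panel), by distance in kb, with IDR summits in orange, genes as blue bars and the dashed line at the lowest IDR signal of 144. No summit between y and the end of ase reaches the line, while 4 between ase and vnd pass it, and 1 does between wor and sna.

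Other genes of the same processes were counted from lists put together for this purpose. Their counts are to be read beside the 39.7% of all protein-coding genes with an IDR summit. Of 7 other proneural bHLH genes and partners, 4 had an IDR summit: emc, an inhibitor of proneural proteins, at rank 725, hry, the repressor Hairy, at 1552, da, the common bHLH partner, at 1896, and amos, a proneural gene of sense organs, at 3006. The summit of da lay 15 bp from the TSS of its neighbour Cnot4. The strongest pooled summit of ato was at rank 18030, and cato and tap had none. The other Snail family genes, sna and scrt, had no IDR summit and strongest pooled ranks of 7247 and 8854.

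Of 10 genes of neuroblast fate and division, 5 had an IDR summit: brat (rank 270), CycE (368), numb (498), pros (800) and insc (1998). The summits of pros and insc lay nearest to the TSSs of mgr and sktl. Of these, numb, pros, brat and insc act in or are sorted by asymmetric division, as do mira and pon, which had no IDR summit. Also without one were dpn, nerfin-1 and klu, of which nerfin-1 and klu stood just past the limit at 4297 and 4391. Of 7 columnar partners and inputs, 5 had one: brk (219), Dll (525), D (1145), dl (2661) and Egfr (3388), while SoxN and rho did not.

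Among temporal and Sox factors 4 of 9 had an IDR summit, grh (574), pros, D and hb (1922), while Kr, nub, pdm2, cas and SoxN did not, with D, SoxN and pros shared with the lists above. Of 9 Notch receptor and regulator genes 6 had one, with mam at 276, neur at 452, N at 589, fng at 1888 and mib1 at 3859 beside numb, while Ser, Su(H) and H did not. The summits of mam, N and fng lay nearest to the TSSs of CG18371, CG18508 and Sems. All 12 of the Enhancer of split genes and gro, of which the bHLH genes and gro repress proneural genes under Notch signalling, had one. These genes lie side by side and share summits, however. The 9 genes of the set had 1, so their share of 11.1% was below that of each of these lists but the 2 other Snail family genes. The shares of temporal and Sox factors (44.4%) and of neuroblast fate and division genes (50%) were near the 39.7% of all protein-coding genes. Longer genes have longer territories, and the lengths of the listed genes were not compared. No test of the difference between the lists was made.

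**Figure D5:**
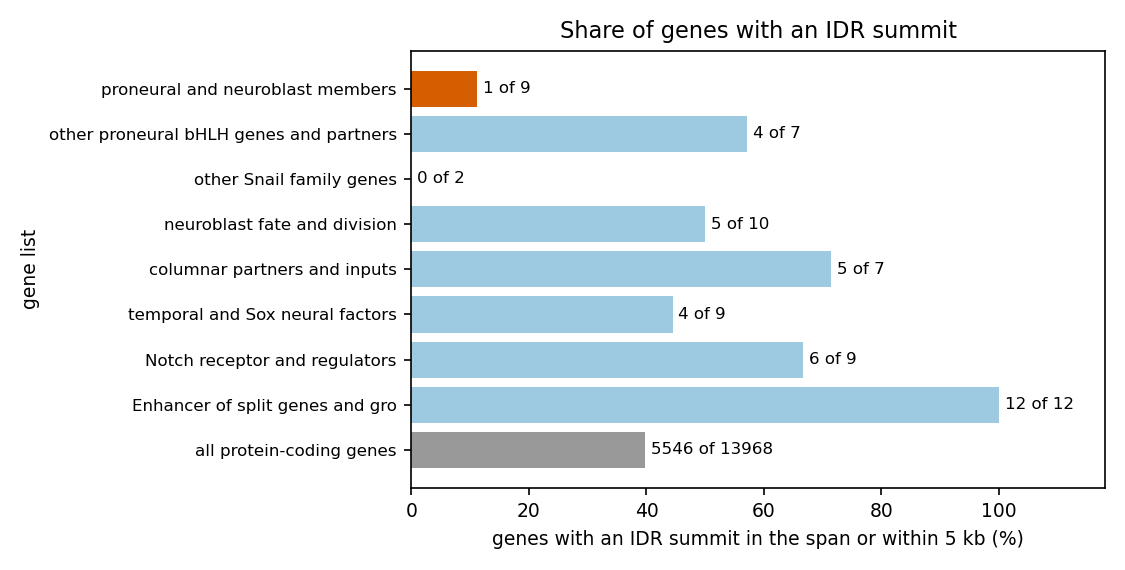
Share of genes with an IDR summit in the territory (horizontal axis, percent) for the 9 genes (orange), for 7 lists of related genes (light blue) and for all protein-coding genes (grey), with the counts beside the bars. The bar of the 9 genes stands at 1 of 9 and that of all genes at 39.7%.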

How the data were processed

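The deposited peak lists of both replicates, of the pooled replicates and of the IDR procedure on dm6 were used; the lists on dm3 were not used, since no dm3 annotation was at hand. Per the labels and the text records deposited with the libraries, alignments set against a control gave the relaxed lists, which in turn were the input of the IDR procedure. Not given in the sources used here are the aligner, the peak caller, the read filters and the IDR threshold. The signal is a score that the authors' peak caller gave each peak; it grows with depth and was used only to rank and describe peaks within a list. A summit is the deposited peak start plus the deposited offset in bp.

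Gene spans and TSSs came from Ensembl release 115 and sequences from NCBI Release 6, the same assembly as dm6. Transposable elements were left out of the annotation. Coordinates are 1-based. Promoters are within 500 bp of a TSS. A summit was matched in a replicate when one of its summits lay within 100 bp. The shares of genes with an IDR summit among the 9 and among all genes carry exact 95% Clopper-Pearson intervals; the other counts are given as counts. With 1 group there is no comparison between conditions, no p-value was computed, and the replicates' spread is shown by giving both. The words are short consensus words given as background, not weight matrices.

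All 9 genes are named in full, and the genes of the lists are named where they have an IDR summit, with the others beside them, except that the Enhancer of split genes are counted as a group; sna, scrt, nerfin-1, klu, ato and the neighbours at summits were named after their values were seen. The genes and lists were chosen with earlier results of these data known. Delta was not found under the symbol Dl and was left out of its list of 10. The lengths, word windows and match distances tried as alternatives are given in the closing part. Python 3.11.15, pandas 2.3.3, numpy 2.4.6 and scipy 1.17.1 were used. The overlap step was tested on simulated peaks and the word search on a simulated sequence, and the matching of replicates was not tested this way.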

Additional observations from a re-analysis of the deposited data

How the results depend on the processing

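The 1 gene with an IDR summit became 0 when spans alone, spans plus 1 kb, or the stronger part of the IDR list were used, and 3 (Dr, vnd and ase) when as many pooled peaks again were added. It was 1 to 2 with each replicate alone, and 1 with 10 kb or with the nearest TSS alone. The share of all protein-coding genes was 11.9% for spans alone, 22.8% with 1 kb, 53.6% with 10 kb, 17.3% by nearest TSS, 27.0% with the stronger part of the IDR list, 53.8% with the larger number of pooled peaks and 40.3 to 41.4% with each replicate alone. Spans alone held pooled summits for 2 genes and 4 summits in all, against 15 summits with 1 kb and 61 with 10 kb. The median strongest rank was 28294 with 1 kb, 6869 with 10 kb and 12635 to 12868 in the replicates, and spans alone gave none, as most of the genes then had no summit. Just outside the window of 5 kb, at up to 10 kb, the strongest pooled ranks were 4991 for esg, 7430 for wor, 6869 for ac and 21731 for sc. The gene ind, with no pooled summit within 5 kb, had one there. The summit at rank 7430 lay 903 bp from the TSS of CG4161, and the nearest protein-coding TSS to that at rank 6869 was that of y. Of the 8 strongest summits, 2 held a word within 50 bp and 6 within 200 bp, again without such a share over all summits. Of the same 8, 3 to 5 were matched in both replicates under the other match distances. No paired analysis was possible because there is 1 group. Peak lists of fixed length limit what can be said of sites below rank 30000, and the depth is unknown.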

Other observations

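Over the 106.668 kb of the achaete-scute complex the pooled list had 20 summits and the IDR list 0, against 27 and 4 over the next 118.944 kb of the X chromosome, between the end of ase and the start of vnd. The strongest of those 4, at rank 67 with a signal of 1086, lay 254 bp from a TSS of elav, which encodes an RNA-binding protein of neurons and is used as their marker. The others were at rank 328, nearest to CG17896, at rank 472, nearest to svr, and at rank 1793, in an intron of elav. These genes were named after their values were seen.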
